A study of Mus musculus with 24 samples.

Results

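Pulmonary fibroblasts from wild-type (WT) mice were treated with recombinant murine cold-inducible RNA-binding protein (rmCIRP) alone or together with recombinant murine transforming growth factor β1 (rmTGF-β1). The 3 libraries of rmCIRP+rmTGF-β1 were set against the 3 libraries of rmCIRP, 6 of 24 in the series, with each library's group taken from its label. The comparison asks what rmTGF-β1 changed in cells that were also exposed to rmCIRP. All 6 libraries carried the same 1 μg/ml of rmCIRP, so that only the 2 ng/ml of rmTGF-β1 differed between them. Both proteins were left on the cells for 24 h, and nothing in the labels says that one was given before the other. The cells came from C57BL/6 mice aged 4 to 8 weeks, were prepared from pools of 3 to 4 lungs, were used at passages 3 to 6 and spent a night in Opti-MEM before treatment. The other WT libraries had PBS (3) or 2 ng/ml of rmTGF-β1 alone (3), and the same 4 treatments were given to fibroblasts labelled TLR4-/- (12 libraries). The labels do not say whether the 3 libraries of a group were separate cultures or animals. Each p-value rests on the spread between libraries within all 8 conditions, which were fitted together, and that spread may be technical.

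CIRP released from stressed cells acts as a danger signal through Toll-like receptor 4 (TLR4), whose adaptor MyD88 leads to NF-κB and to cytokines, chemokines and interferon-stimulated genes. TGF-β1 binds a pair of serine/threonine kinase receptors, TGFBR2 and TGFBR1, which phosphorylate SMAD2 and SMAD3. In lung fibroblasts this pathway is known for raising collagen, elastin and crosslinking enzymes, for the contractile myofibroblast state, and for dampening inflammation in many immune cells.

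Each library of the series held between 29853346 and 39664606 reads assigned to a gene, so counting error was small for all but the rarest genes. WT replicates differed by a chi-square of 2.52 to 7.03 per degree of freedom, against a highest value of 45.7 for libraries labelled TLR4-/- with both proteins, where replicate 3 stood apart from replicates 1 and 2. That library did not enter the WT comparison, but shared the estimate of the spread that the test used for each gene. Without it, 4051 genes passed the test in place of 3329. The libraries labelled TLR4-/- also had higher summed macrophage markers than WT (350804 to 450311 normalized counts against 81368 to 104022). Tlr4 mRNA was not lower under the TLR4-/- label (941, 858 and 908 normalized counts with rmCIRP, and 771, 725 and 763 in WT), so that its level gave no check of that label. Within the 6 WT libraries compared, the macrophage sum was 83914 to 89252 with rmCIRP and 81368 to 91802 with rmCIRP+rmTGF-β1, and the ranges overlapped. The summed level of 12 fibroblast markers was 465637 to 503370 with rmCIRP and 522050 to 538140 with both, without overlap. This sum did not stand for each member. Of the 12, 2 passed the test as higher and 3 as lower, beside 10.0% and 10.5% of all genes. The mean of Col1a1, the most abundant, went from 188256 to 224664, whereas that of Pdgfra went from 9554 to 6453. Both sets were present in all 6 libraries, and in such bulk samples fewer cells of a type and less RNA per cell cannot be told apart.

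Of the 16258 genes tested, 3329 (20.5%) differed between rmCIRP+rmTGF-β1 and rmCIRP at an adjusted p under 0.1 (quasi-likelihood test of edgeR, p-values adjusted by Benjamini-Hochberg over all genes tested), 1629 higher (10.0%) and 1700 lower (10.5%) with rmTGF-β1. Most differences were small. The median size of a called log2 fold change was 0.27, 837 called genes changed by at least 0.5 and 243 by at least 1, which is a doubling or a fall by the same factor. Among those 243 genes, 156 were higher and 87 lower. Over all genes tested, the median log2 fold change was -0.01, and the 3 and 3 libraries did not overlap in 36.4% of genes. All levels below are normalized counts, which are counts scaled to a common library size and not divided by gene length, so that they compare libraries and not genes. Where 3 values are set against 3, the rmCIRP libraries come first and those with both proteins second, each in the order of replicates 1 to 3.

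**Figure D1:**
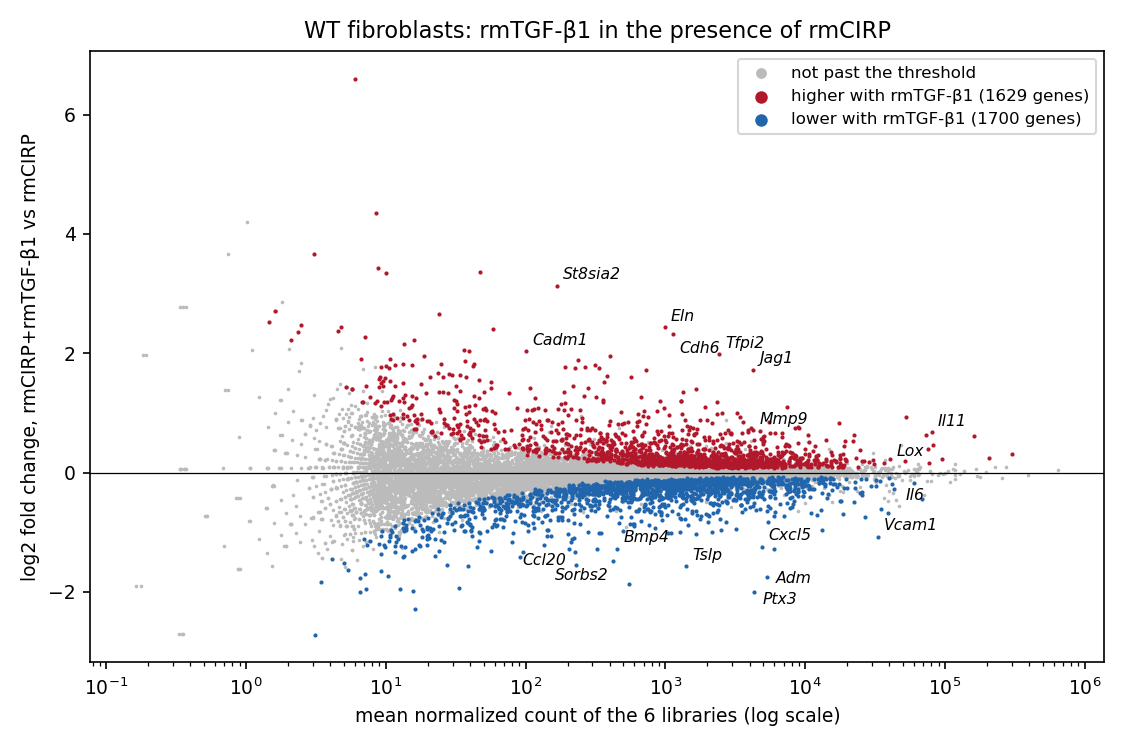
Log2 fold change of rmCIRP+rmTGF-β1 against rmCIRP in WT fibroblasts (vertical axis) by the mean normalized count of the 6 libraries (horizontal axis, log scale), 1 point per gene tested. The 1629 genes higher and the 1700 genes lower with rmTGF-β1 lie on both sides of 0 over most of the range of levels, with St8sia2 and Eln among the highest and Ptx3 and Adm among the lowest of the labelled genes.

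Among called genes that averaged 50 or more normalized counts over the 6 libraries and did not overlap between groups, the 15 with the largest rise were St8sia2, Eln, Adgra1, Cdh6, Cadm1, Tfpi2, Kcnh1, Sema4f, Tnfaip6, Hr, Fgf18, Cxcr4, Fam167a, Jag1 and Htra3. St8sia2, which adds polysialic acid to cell surface proteins, had 32.9, 42.2 and 27.7 normalized counts in the 3 rmCIRP libraries and 315, 327 and 263 in the 3 libraries with both. Every library with both proteins was above every rmCIRP library, as the rule for this list required. The log2 fold change was 3.13 ± 0.20 (SE), an 8.77-fold rise (adjusted p = 1.63e-09). Eln, the gene for elastin, had 395, 257 and 272 with rmCIRP and 1749, 1665 and 1599 with both. The rise was 5.43-fold (log2 2.44 ± 0.28, adjusted p = 2.16e-06). With PBS, Eln had 1089.5, 1326 and 1502, and with rmTGF-β1 alone 4383, 5134 and 4811, so that its level with both proteins lay far below that with rmTGF-β1 alone.

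Adhesion and guidance molecules made up several of these genes. Cdh6, a classical cadherin, had 399, 384 and 351 with rmCIRP and 1787, 2017 and 1849.5 with both, a 4.98-fold rise (log2 2.31 ± 0.16, adjusted p = 3.56e-09). Cadm1, an immunoglobulin-type adhesion molecule, had 34.0, 50.4 and 33.6 against 183, 157 and 144 (log2 2.03 ± 0.17). Jag1, a ligand of Notch receptors, had 2009, 1934 and 1951 against 6360.4, 6671 and 6485 (log2 1.72 ± 0.14, adjusted p = 1.6e-08). The groups did not overlap in these genes, which the rule for the list required. The semaphorin Sema4f (log2 1.88 ± 0.26) and the adhesion receptor Adgra1 (log2 2.41 ± 0.27) rose as well.

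Secreted inhibitors and signalling genes formed the rest of the list. Tfpi2, a serine protease inhibitor deposited in the matrix, had 971, 947 and 1011 with rmCIRP and 3834, 4009 and 3768 with both (log2 1.98 ± 0.15, adjusted p = 6.17e-09). Tnfaip6, which encodes a hyaluronan-binding protein induced in inflammation, had 153, 124 and 140.3 against 486, 500.2 and 474 (log2 1.80 ± 0.29). Cxcr4, the receptor of the chemokine Cxcl12, had 156, 146 and 155 against 486, 526 and 542 (log2 1.76 ± 0.22). The growth factor Fgf18, the potassium channel Kcnh1, the serine protease Htra3, the corepressor Hr and Fam167a had log2 fold changes of 1.76, 1.96, 1.72, 1.78 and 1.75. All 15 rises passed the test in every fit that left out 1 library.

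The 250 bases before the transcription start are shown for the 3 largest risers with an entry in RefSeq's promoter table (build GRCm38.p6), chosen as the genes that responded most. SMAD3 and SMAD4 are known to bind short boxes of the letters CAGAC. Both strands were searched for it, so that capitals mark CAGAC or its reverse complement GTCTG. St8sia2 lies on the minus strand (chr7:74013683-74013932), Adgra1 on the plus strand (chr7:139833924-139834173) and Cdh6 on the minus strand (chr15:13173676-13173925), each printed 5′ to 3′.
St8sia2: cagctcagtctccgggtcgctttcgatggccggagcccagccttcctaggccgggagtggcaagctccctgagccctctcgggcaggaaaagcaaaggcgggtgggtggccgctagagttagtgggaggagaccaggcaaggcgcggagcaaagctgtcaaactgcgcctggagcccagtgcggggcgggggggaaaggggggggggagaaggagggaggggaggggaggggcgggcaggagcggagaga
Adgra1: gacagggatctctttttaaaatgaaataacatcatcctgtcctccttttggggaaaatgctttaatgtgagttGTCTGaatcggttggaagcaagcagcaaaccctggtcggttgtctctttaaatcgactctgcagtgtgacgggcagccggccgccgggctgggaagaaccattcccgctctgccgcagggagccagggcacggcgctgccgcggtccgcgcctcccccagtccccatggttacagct
Cdh6: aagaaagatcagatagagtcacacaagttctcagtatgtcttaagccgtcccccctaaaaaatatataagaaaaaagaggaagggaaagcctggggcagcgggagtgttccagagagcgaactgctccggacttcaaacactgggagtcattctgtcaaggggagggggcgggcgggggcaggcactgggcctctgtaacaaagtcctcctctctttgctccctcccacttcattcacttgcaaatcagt
Adgra1 held 1 such box, and St8sia2 and Cdh6 held 0 in these windows. Of 14896 windows of the same length for 11657 tested genes, 41.2% held at least 1. The match is a description of letters, and a window without it says nothing about the factor.

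**Figure D2:**
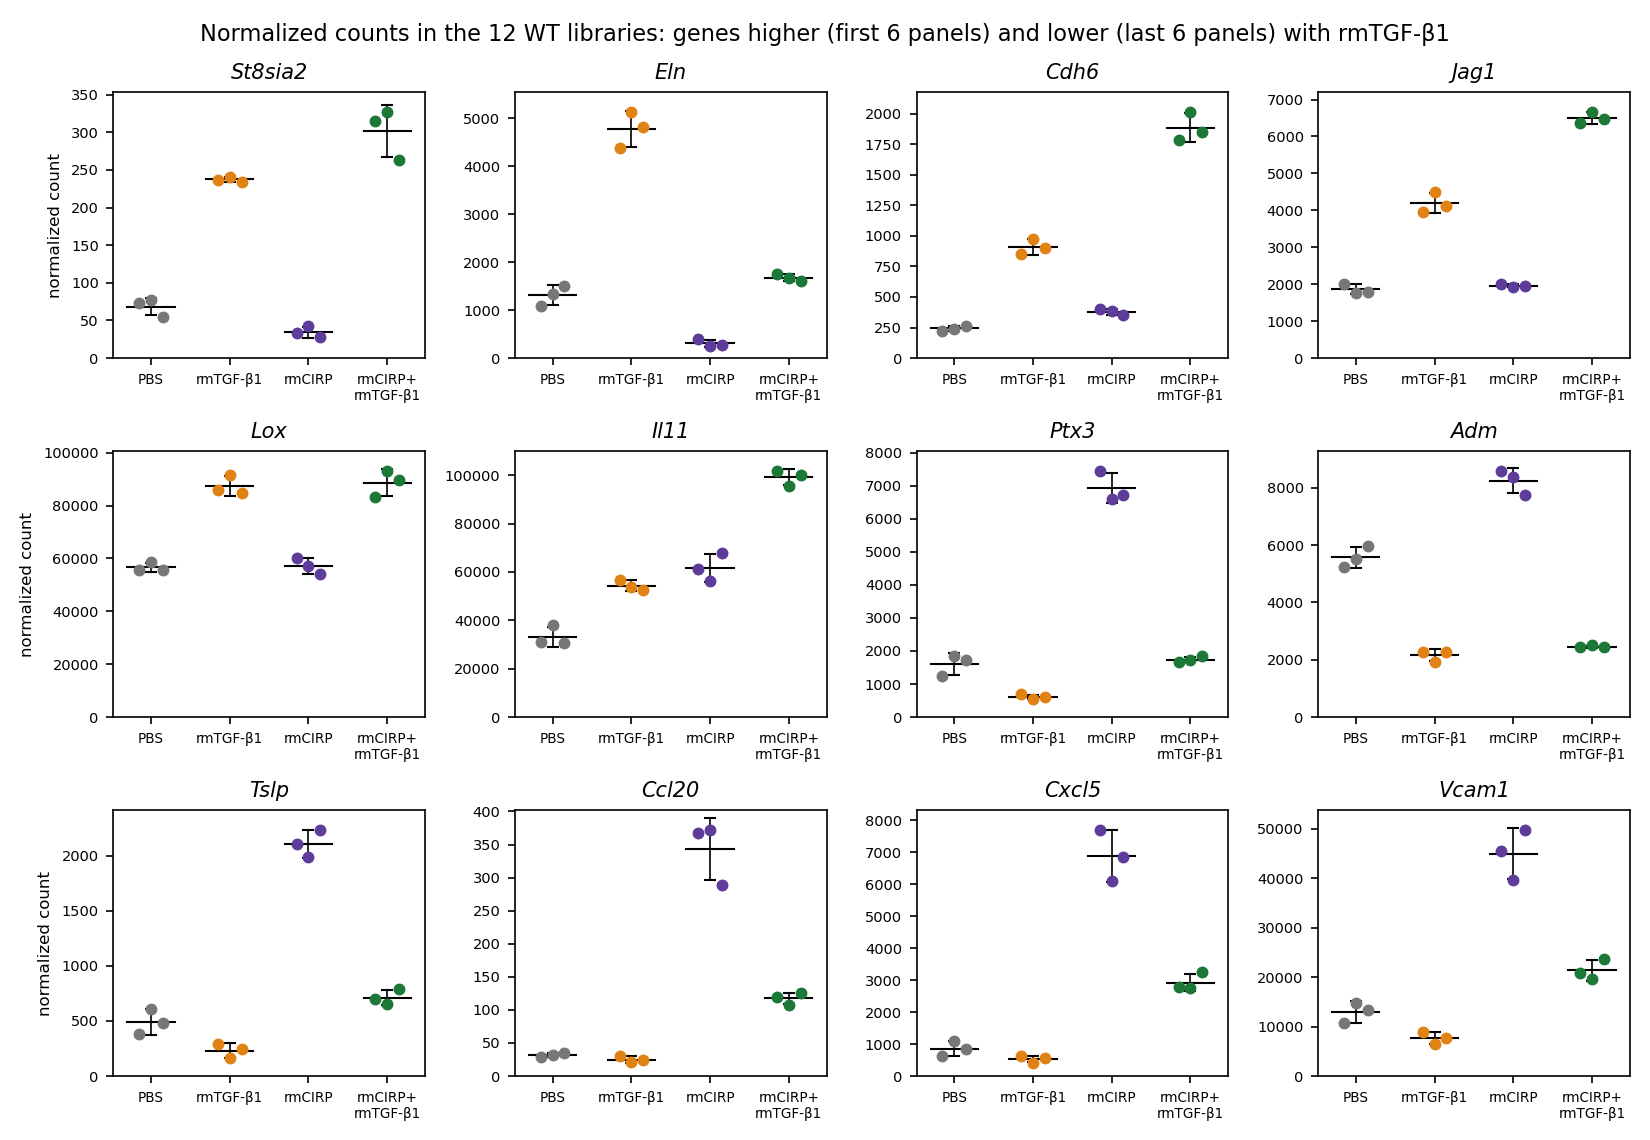
Normalized counts (vertical axes, from 0) of 12 genes in the 12 WT libraries by treatment, with 1 point per library, a line at the mean and bars of ± 1 SD (n = 3). In the first 6 panels the rmCIRP+rmTGF-β1 points lie above the rmCIRP points, in the last 6 below them, and in no panel do these groups overlap.

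The 15 genes with the largest fall, by the same rule, were Ptx3, Bc1, Adm, Tslp, Ccl20, Sorbs2, Sele, Hsd3b1, Ccno, Fgf23, Gm4841, Akr1c18, Dio2, Bmp4 and Cxcl5. Ptx3, a pentraxin of innate immunity, had 7456, 6598 and 6734 normalized counts with rmCIRP and 1678, 1712 and 1836 with both. It fell 3.99-fold (SE 0.16 on the log2 scale, adjusted p = 1.57e-08), and with PBS it had 1238, 1858 and 1715. Adm, the gene of the vasodilator peptide adrenomedullin, had 8591, 8383 and 7753 against 2432, 2498 and 2427 (log2 -1.75 ± 0.13, adjusted p = 6.48e-09). The 3 libraries with both lay below those with PBS (5238, 5512 and 5963).

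Several of the falling genes encode mediators that recruit or instruct leukocytes. Tslp, a cytokine that acts on dendritic cells, had 2104, 1985 and 2236 with rmCIRP and 696, 653 and 787 with both (log2 -1.57 ± 0.20, adjusted p = 7.71e-06). Ccl20, the ligand of Ccr6, had 368, 372 and 289 against 119, 108 and 125 (log2 -1.55 ± 0.13, adjusted p = 2.92e-08). Cxcl5, a neutrophil attractant, had 7711, 6096 and 6868 against 2788, 2752 and 3242 (log2 -1.24 ± 0.22, adjusted p = 0.000356). All libraries with both proteins were still above the PBS means of these 3 genes, which were 492, 32.1 and 859. The selectin Sele fell by 1.42 on the log2 scale from a mean of 133. Vcam1, a leukocyte adhesion molecule chosen after its values were seen, had 45502, 39666 and 49821 with rmCIRP and 20856, 19643 and 23733 with both (log2 -1.08 ± 0.17, adjusted p = 0.000112).

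Hormone and steroid genes were also among the falls. Dio2, the deiodinase that activates thyroid hormone, had 8823, 7064 and 9542 against 3295, 2942 and 4228 (log2 -1.28 ± 0.32, adjusted p = 0.0073). The steroid enzymes Hsd3b1 and Akr1c18 had log2 fold changes of -1.32 and -1.29, and the phosphate hormone Fgf23 one of -1.31. The adaptor Sorbs2 had 624, 609 and 626 against 202, 236 and 228 (log2 -1.49 ± 0.14). The noncoding RNA Bc1 varied most, with 469, 973 and 1171 against 373, 144 and 189 (log2 -1.88 ± 0.48, adjusted p = 0.00882). Ccno fell by 1.32 and Gm4841 by 1.29 on the log2 scale, the latter without passing DESeq2's test (adjusted p = 0.491). Hsd3b1 and Gm4841 belong to families of close copies that may share reads, so that their values are less certain.

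Among 19 ligands, receptors and latent binding proteins of the TGF-β system, 10 rose and 2 fell, with a median log2 fold change of 0.16. The counts of these and the following lists stand beside the 10.0% of all genes that were higher and the 10.5% that were lower. Tgfb1, the ligand itself, had 5773, 6127 and 6282 normalized counts with rmCIRP and 8313, 8285 and 8185 with both (log2 0.44 ± 0.077, adjusted p = 0.000317). Tgfb2 rose further on the log scale, from 309.9, 247 and 235 to 409, 438 and 411 (log2 0.66 ± 0.17, adjusted p = 0.00836). Tgfb3 did not pass (log2 0.15, 95% interval -0.11 to 0.42, adjusted p = 0.486).

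The receptors moved in both directions. Tgfbr1, the signalling receptor, had 4186, 3733 and 3976 against 5877, 6229 and 6226 (log2 0.62 ± 0.093, adjusted p = 6.13e-05), and Tgfbr2 rose by 0.16 (adjusted p = 0.0196). Tgfbr3, the coreceptor betaglycan, fell from 2664, 2470.2 and 2559.6 to 1384, 1483 and 1466 (log2 -0.83 ± 0.12, adjusted p = 2.41e-05). Acvrl1, a type I receptor of the BMP branch, fell by 0.36 (adjusted p = 1.96e-08). The latent binding protein Ltbp2 rose from 68997, 63725 and 62093 to 85317, 85518 and 85454 (log2 0.39 ± 0.08).

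SMAD proteins, feedback inhibitors and ID genes went in both directions, with 6 of 20 higher, 5 lower and a median of -0.0024, beside 10.0% and 10.5% of all genes. Inhibitors that the pathway is known to induce were among the risers. Pmepa1 had 16466, 15887 and 16187 with rmCIRP and 22015, 22239 and 21807 with both (log2 0.44 ± 0.044, adjusted p = 3.59e-07), Ldlrad4 rose by 0.33, the inhibitory SMAD Smad7 by 0.21 and the corepressor Skil by 0.16. Smad3, a receptor-activated SMAD, fell from 5088, 4767 and 5176 to 3416, 3154 and 3692 (log2 -0.55 ± 0.12, adjusted p = 0.00296). All 4 ID genes, whose products block basic helix-loop-helix factors and are targets of BMP signals, were lower, by 0.40 for Id1, 0.40 for Id2, 0.38 for Id3 and 0.54 for Id4. Id3 lost the call without rmCIRP replicate 1 (adjusted p = 0.109).

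Of 26 matricellular and early TGF-β target genes, 12 rose and 2 fell, with a median of 0.15. Ccn4 had 13148, 12493 and 12087 normalized counts with rmCIRP and 21717, 22826 and 22449 with both (log2 0.82 ± 0.074, adjusted p = 6.92e-08). Ccn2, connective tissue growth factor, had 72484, 71317 and 61648 against 91743, 99041 and 93646 (log2 0.47 ± 0.085, adjusted p = 0.000511). The groups did not overlap in either gene, and both changes were under a doubling.

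Tgfbi rose by 0.98 ± 0.15, the NADPH oxidase Nox4 by 0.67 ± 0.15 and Postn by 0.32 ± 0.071. Cilp, a matrix protein first known from cartilage, was near its floor with rmCIRP (1.06, 1.03 and 1.98) and had 14.3, 17.4 and 16.6 with both, a ratio of summed counts of 11.7 with an exact 95% counting interval of 4.27 to 44.9. Il11, a cytokine known to act on fibroblasts, had 61034, 56351 and 67619 against 101834, 95414 and 100119 (log2 0.68 ± 0.24, adjusted p = 0.0562), and lost the call without any 1 library other than rmCIRP replicate 3 (adjusted p 0.106 to 0.155). Among widely used markers of the pathway, fibronectin and thrombospondin 1 were not called in the fit of all 24 libraries. Fn1 (log2 0.10, 95% interval -0.03 to 0.22, adjusted p = 0.334) and Thbs1 (log2 0.04, interval -0.08 to 0.15) did not pass. Fitted on the 12 WT libraries alone, Fn1 was called (adjusted p = 0.0469) and Thbs1 was not (0.466). The 2 falls were Snai2 (-0.44) and the cell cycle inhibitor Cdkn2b (-0.36), whose call was lost without replicate 1 of rmCIRP+rmTGF-β1 (adjusted p = 0.116), while Snai1, which is related to Snai2, rose by 0.30.

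Fibrillar collagens rose in 5 of 11 genes and fell in 1, with a median of 0.15. The minor chains changed most. Col27a1 had 649, 757 and 741 normalized counts with rmCIRP and 1465, 1374 and 1354 with both (log2 0.96 ± 0.12, adjusted p = 3.58e-06). Col11a1 had 6969.6, 6902 and 6176 against 11231, 11608 and 11053 (log2 0.75 ± 0.09, adjusted p = 3.39e-06), and Col5a3 rose by 0.53 ± 0.16. Of the type I collagen chains, Col1a1 had 198032, 188840 and 177896 against 228624, 221512 and 223857 (log2 0.25 ± 0.079, adjusted p = 0.0344, and 0.128 without rmCIRP replicate 3). Col1a2 did not pass (log2 0.14, 95% interval -0.01 to 0.29, adjusted p = 0.206), although its libraries did not overlap. Col3a1 did not pass either (log2 0.10, interval -0.15 to 0.35). With the WT libraries fitted alone, Col1a2 was called higher (adjusted p = 0.00809) and Col3a1 was not called (0.503). The fall was that of Col24a1, a rare chain (87.0, 57.6 and 78.0 against 52.0, 45.3 and 45.4, log2 -0.64 ± 0.22), whose call was lost without rmCIRP replicate 1 or 3 or replicate 2 or 3 of rmCIRP+rmTGF-β1 (adjusted p 0.141 to 0.196). Among 19 other collagens 6 rose and 0 fell, with Col7a1, the anchoring fibril collagen, going from 2171, 2459 and 2391 to 5044, 4268 and 4137 (log2 0.93 ± 0.13).

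Elastic fibre genes rose in 5 of 14 cases and fell in 0. Besides Eln, the microfibril-associated Emilin1 had 11989, 10781 and 11676 against 17208, 16342 and 16708 (log2 0.54 ± 0.053, adjusted p = 2.39e-07), and the fibrillin Fbn1 rose by 0.23 ± 0.051. Of 16 collagen processing enzymes, 7 rose and 1 fell. Lox, which crosslinks collagen and elastin, had 60246, 57238 and 54087 with rmCIRP and 83238, 93209 and 89697 with both (log2 0.63 ± 0.072, adjusted p = 1.99e-06). The prolyl hydroxylase subunit P4ha3 rose by 0.57 and Loxl2 by 0.19, while the procollagen protease Adamts14 fell by 0.38. Among 17 proteoglycan and hyaluronan genes, 1 rose and 4 fell. The riser was Has2, a hyaluronan synthase (18012, 17229 and 18399 against 25004, 26067 and 26607, log2 0.53 ± 0.065), and the largest fall was that of Cemip, which takes part in hyaluronan breakdown (46218, 41504 and 39792 against 26404, 28301 and 28682, log2 -0.62 ± 0.17).

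Few genes of the contractile myofibroblast state passed the test. Of 22 members only the smooth muscle gene Smtn passed (4043, 3863 and 3929.8 against 4615, 4555 and 4784, log2 0.23 ± 0.041, adjusted p = 0.000318), and the list's median was -0.06. Acta2, α-smooth muscle actin, had 267072, 277497 and 247518 normalized counts with rmCIRP and 247464, 258190 and 244223 with both, which overlapped (log2 -0.08, 95% interval -0.29 to 0.13, adjusted p = 0.664). Tagln (log2 0.26, interval 0.02 to 0.50), Cnn1 (log2 0.05, -0.21 to 0.32) and Myh11 (log2 -0.07, -0.29 to 0.16) overlapped as well. With the 12 WT libraries fitted alone, 2 members were called higher and 7 lower.

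Of 21 matrix proteases and their inhibitors 3 were higher and 4 lower, counts not far from the 10.0% and 10.5% of all genes. Timp3, a matrix-bound protease inhibitor, had 35054, 36281 and 37225 against 67041, 71274 and 68709 (log2 0.93 ± 0.072, adjusted p = 1.2e-08). Mmp9, a gelatinase, had 3128, 3202 and 3309 against 5284, 4984 and 5564 (log2 0.71 ± 0.093, adjusted p = 1.17e-05). Mmp8, the neutrophil collagenase, had 6568, 6317 and 6571 against 4002, 4186 and 4316 (log2 -0.64 ± 0.07, adjusted p = 1.06e-06). Each of these 3 genes separated the groups, and Mmp9 and Mmp8 went in opposite directions. The urokinase gene Plau fell by 0.47 ± 0.12, and the stromelysin Mmp3 by 0.74 ± 0.23, the latter losing its call without rmCIRP replicate 3 or replicate 2 of rmCIRP+rmTGF-β1 (adjusted p = 0.146 and 0.12). Mmp13 (log2 -0.43, adjusted p = 0.211) and Mmp10 (log2 -0.34, adjusted p = 0.45) did not pass, although their libraries did not overlap. With the 12 WT libraries fitted alone 5 members were called higher and 9 lower, Mmp13 and Mmp10 among the latter (adjusted p = 0.000173 and 0.00227).

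**Figure D3:**
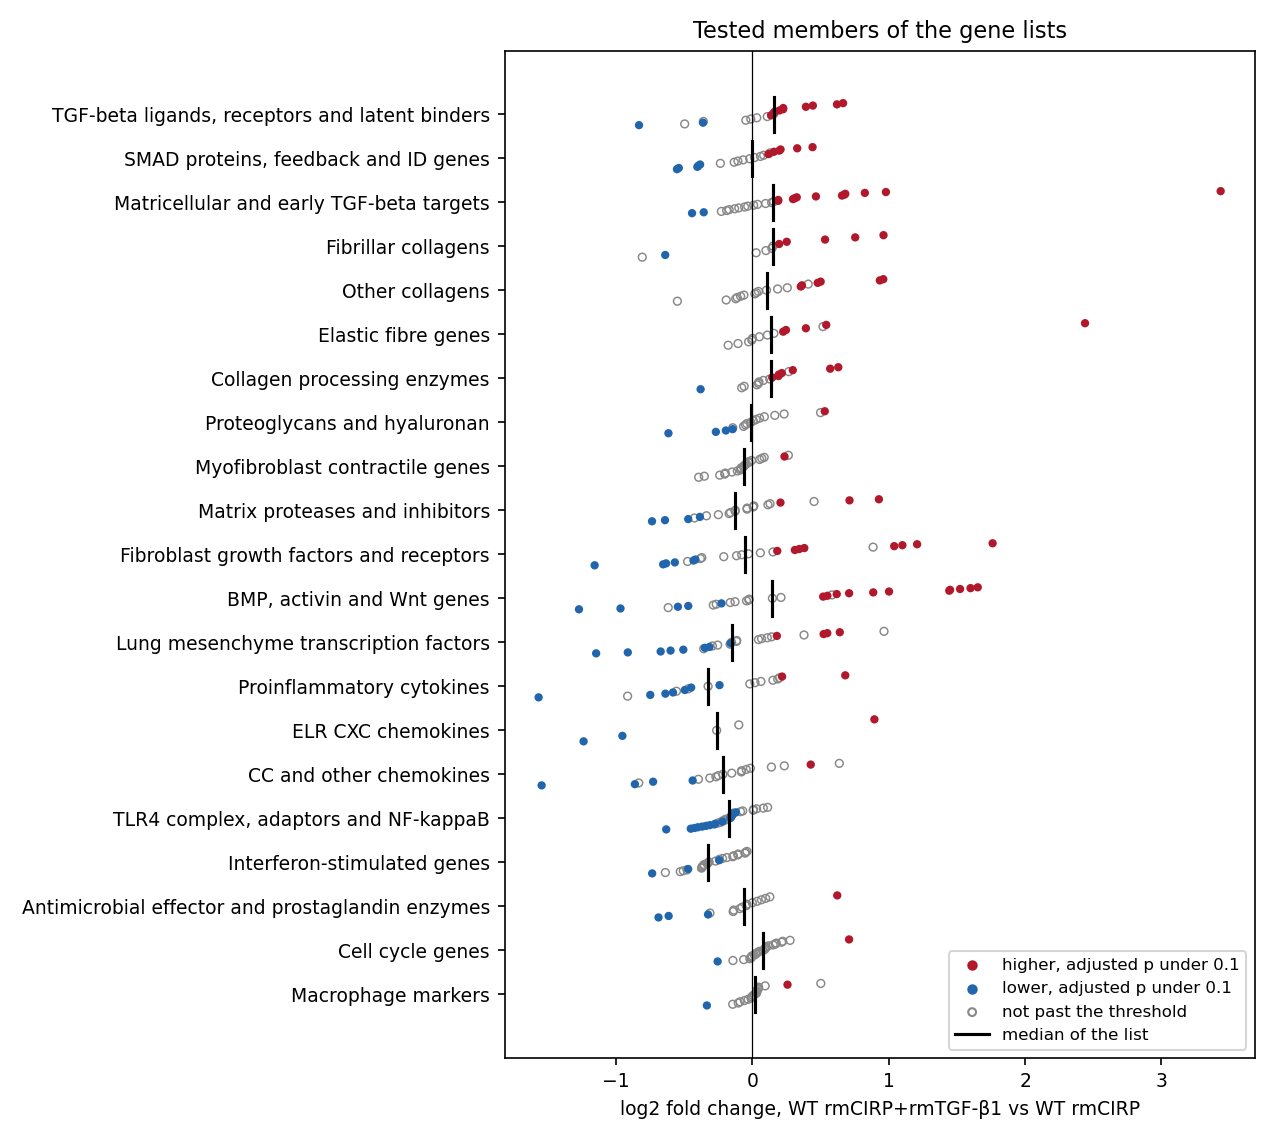
Log2 fold change of rmCIRP+rmTGF-β1 against rmCIRP (horizontal axis) for the tested members of 21 gene lists (rows), with 1 point per gene, filled red or blue where the gene passed the test and open where it did not, and a bar at the list's median. Red points lead among TGF-β system, collagen, elastic fibre and processing genes, and blue points among TLR4 and NF-κB genes, where 17 of 32 were lower and 0 higher.

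Fibroblast growth factors and their receptors rose in 8 of 24 genes and fell in 6. Pdgfc had 718, 816 and 807 normalized counts with rmCIRP and 1811, 1834 and 1781 with both (log2 1.21 ± 0.092, adjusted p = 8.95e-09). Hbegf, a ligand of the EGF receptor, had 4616, 4589 and 4819.8 against 10058, 10202 and 9875 (log2 1.10 ± 0.14), and Pdgfb rose by 1.04 ± 0.11. Among the falls, Fgf10 had 5889, 4952 and 5271 against 3429, 3363 and 3616 (log2 -0.63 ± 0.11, adjusted p = 0.00043), Hgf fell by 0.66 ± 0.13 and Fgf7 by 0.42 ± 0.10. The receptor Pdgfra had 9824, 8995 and 9843 against 6472, 6087 and 6801 (log2 -0.57 ± 0.11, adjusted p = 0.00112), and Fgf1 fell by 1.16 ± 0.18.

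BMP, activin and Wnt genes rose in 11 of 27 tested members and fell in 5, with a median of 0.15. Bmp2 had 268, 238 and 337 normalized counts with rmCIRP and 841, 841 and 884 with both (log2 1.60 ± 0.36, adjusted p = 0.00328). Bmp4, the related ligand, went the other way, from 692, 622 and 613 to 297, 249.5 and 252 (log2 -1.27 ± 0.10, adjusted p = 1.51e-08). The activin subunits were likewise opposed, as Inhba rose from 129283, 119361 and 133545 to 184898, 202496 and 200813 (log2 0.62 ± 0.16) and Inhbb fell from 181, 201 and 183 to 103, 74.3 and 111 (log2 -0.97 ± 0.23). Fst, the activin antagonist, fell by 0.47 ± 0.083. Each Wnt ligand of the list that passed was higher. Wnt5a had 2187, 2206 and 2079.5 against 4106, 4611 and 4285 (log2 1.00 ± 0.081, adjusted p = 1.57e-08), Wnt2 rose by 1.52 ± 0.20 and the less abundant Wnt10b by 1.65 ± 0.24 from a mean of 13.7.

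Of 25 transcription factors of the lung mesenchyme 4 were higher and 8 lower, beside 10.0% and 10.5% of all genes, with a median of -0.15. The count of lower members was 5 without rmCIRP replicate 3 or replicate 2 of rmCIRP+rmTGF-β1, and 6 or 7 without any other of the 6 libraries. Runx1 had 4081, 4124 and 3941 against 5658, 6085 and 6070.5 (log2 0.55 ± 0.059, adjusted p = 8.39e-07), and Runx2, a regulator of osteoblasts, rose by 0.64 ± 0.069. Prrx1, a homeobox factor of mesenchymal cells, had 14167, 12846 and 13815 against 8534, 8295 and 8833 (log2 -0.67 ± 0.083, adjusted p = 5.35e-06). Pparg, the regulator of the lipid-storing state, had 83.8, 61.7 and 79.0 against 31.6, 31.3 and 56.5 (log2 -0.91 ± 0.23, adjusted p = 0.00851). Meox2 fell by 1.15 ± 0.25 and Foxf1 by 0.35 ± 0.087.

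Among 19 tested proinflammatory cytokines, 2 rose, 7 fell and 10 did not pass, with a median of -0.33. In fits that left out 1 of the 6 libraries compared, 0 or 1 rose and 4 to 7 fell. The interleukin 1 genes, which are classical products of TLR4 signalling, were not among those called. Il1b had 15923, 15495 and 16810 normalized counts with rmCIRP and 16238, 14685 and 16777 with both, which overlapped (log2 -0.02, 95% interval -0.19 to 0.15). Il1a overlapped too, with 7880, 7757 and 8831 against 8206, 7745 and 8903 (log2 0.02, interval -0.25 to 0.29). Tnf had 7474, 7678 and 8696 against 6238, 6658 and 7329, without overlap (log2 -0.24 ± 0.093, adjusted p = 0.0854). The size of this change was close to the spread between libraries. Tnf lost its call without rmCIRP replicate 2 or 3 or without replicate 1 or 2 of rmCIRP+rmTGF-β1 (adjusted p 0.13 to 0.351). Il6 had 56835, 51101 and 59860 against 37203, 36208 and 40910, without overlap, and did not pass (log2 -0.56, interval -1.03 to -0.08, adjusted p = 0.109, and 0.00129 with the 12 WT libraries alone).

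Besides Tslp, the falls took in growth factors and cytokines of myeloid cells. Csf3, which drives neutrophil production, had 1082, 1042 and 1164 against 802, 608 and 704 (log2 -0.64 ± 0.091, adjusted p = 3.25e-05). Il27 had 209, 194 and 261 against 122, 140.4 and 134 (log2 -0.75 ± 0.18, adjusted p = 0.00498). Il12b, a subunit of interleukins 12 and 23, had 1227, 893 and 1093 against 786, 759 and 812 (log2 -0.45 ± 0.11), and 0 in all WT libraries without rmCIRP. With PBS the means were 79.3 for Csf3 and 2.66 for Il27, so that most of the level seen with rmCIRP was still there with both. Il18 fell by 0.58 and Csf2, the gene of GM-CSF, by 0.50 on the log2 scale. The call of Il18 was lost without rmCIRP replicate 3 or replicate 1 of rmCIRP+rmTGF-β1 (adjusted p = 0.236 and 0.109), and that of Csf2 without rmCIRP replicate 3 or replicate 1 or 3 of rmCIRP+rmTGF-β1 (0.113 to 0.153). Lif, from 47740, 43041 and 45871 to 31948, 32061 and 34908 (log2 -0.47, adjusted p = 0.221), and Il33, from 684, 511 and 857 to 366, 277 and 447 (log2 -0.92, adjusted p = 0.168), did not pass, although their libraries did not overlap. Lif and Il33 were both called with the 12 WT libraries fitted alone (adjusted p = 0.0007 and 0.00204).

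Of the 5 neutrophil-attracting CXC chemokines, Cxcl5 and Cxcl1 fell and Ppbp, which is rare here, rose. Cxcl1 had 17061, 17052 and 17921 normalized counts with rmCIRP and 8834, 8651 and 9437 with both (log2 -0.95 ± 0.34, adjusted p = 0.0632). Its call was lost when any 1 of the 6 libraries was left out (adjusted p 0.109 to 0.162). Ppbp had 8.49, 11.3 and 17.8 against 27.5, 19.7 and 23.3, and lost its call without rmCIRP replicate 1 or 2 or without replicate 1 or 3 of rmCIRP+rmTGF-β1 (adjusted p 0.122 to 0.224). Cxcl2 (log2 -0.26, 95% interval -0.54 to 0.01) and Cxcl3 (log2 -0.10, interval -0.36 to 0.16) did not pass. With the WT libraries fitted alone, both were called lower (adjusted p = 0.00503 and 0.0668). In that fit 4 of the 5 chemokines were lower.

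Of 19 other chemokines tested, 1 rose and 4 fell, a share close to the 20.5% of all genes called, and with the 12 WT libraries fitted alone 4 rose and 11 fell. Ccl2, the monocyte attractant, had 79081, 77002 and 78554 against 58698, 56221 and 58622 (log2 -0.44 ± 0.17, adjusted p = 0.0902), with the call lost when any 1 of the 6 libraries was left out (adjusted p 0.164 to 0.204). Ccl22 had 70.0, 76.1 and 82.0 against 38.7, 38.3 and 48.8 (log2 -0.86 ± 0.24, adjusted p = 0.0176). Cxcl10, an interferon-induced attractant of T cells, had 8530.5, 6249 and 11783 against 4863, 4892 and 6319.8, which overlapped (log2 -0.73 ± 0.27, adjusted p = 0.0718, and 0.12 to 0.371 without rmCIRP replicate 1 or 3 or replicate 1 or 2 of rmCIRP+rmTGF-β1). The 1 gene that went the other way, the membrane-bound chemokine Cx3cl1, had 515, 475 and 464 against 649.5, 656 and 655 (log2 0.43 ± 0.14, adjusted p = 0.0471, and 0.101 to 0.127 without replicate 2 or 3 of either group). Ccl5 (log2 -0.15, adjusted p = 0.258) and Ccl3 (log2 -0.22, adjusted p = 0.202) did not pass.

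Genes of the TLR4 complex, its adaptors and NF-κB were lower in 17 of 32 cases and higher in 0, against 10.5% lower among all genes, with a median of -0.17. The changes were small, and in fits that left out 1 of the 6 libraries compared the count lay between 7 (without rmCIRP replicate 3) and 11 (without replicate 3 of rmCIRP+rmTGF-β1). Tlr4 itself had 771, 725 and 763 normalized counts with rmCIRP and 689, 704 and 643 with both (log2 -0.15 ± 0.058, adjusted p = 0.0819), and lost the call without any 1 library other than replicate 2 of rmCIRP+rmTGF-β1 (adjusted p 0.113 to 0.275). Ly96, the MD-2 coreceptor, had 337, 360.1 and 356 against 281, 270.4 and 283 (log2 -0.34 ± 0.082, adjusted p = 0.0056). Cd14, which hands lipopolysaccharide to the complex, overlapped (log2 0.01, 95% interval -0.21 to 0.23).

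Within the NF-κB group, Rel had 733, 739.7 and 774 against 520.0, 552 and 606 (log2 -0.43 ± 0.068, adjusted p = 0.000126). The kinase Ripk2 had 3791, 3464 and 3546 against 2759, 2784 and 2848 (log2 -0.37 ± 0.059, adjusted p = 0.000114), and Tlr1 fell by 0.45 ± 0.11. All 3 are activators of the pathway. Of its inhibitors, Tnip3, which NF-κB induces, fell by 0.63 ± 0.16. Nfkbia, the inhibitor IκBα, had 10663, 10333 and 11002 against 8605, 8422 and 8808 (log2 -0.31 ± 0.096, adjusted p = 0.0295, and 0.113 without rmCIRP replicate 3). Nfkb1 (log2 -0.15, interval -0.46 to 0.15) and the inhibitor Tnfaip3 (log2 -0.20, interval -0.50 to 0.10) did not pass.

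All 26 interferon-stimulated genes had a log2 fold change below 0, with a median of -0.32, but only 3 passed the test. Gbp2, an interferon-induced GTPase, had 7554, 6164 and 8639 against 4249, 4099 and 5113 (log2 -0.74 ± 0.16, adjusted p = 0.0026). Gbp5 fell by 0.47 ± 0.14 (adjusted p = 0.0223, and 0.194 without rmCIRP replicate 3). Irf1, an interferon regulatory factor, fell by 0.24 ± 0.084 (adjusted p = 0.0517, and 0.34 without rmCIRP replicate 3 and 0.163 without replicate 2 of rmCIRP+rmTGF-β1). Ifit1 had 12097, 8855 and 14032 with rmCIRP and 7777, 7524 and 9375 with both, which overlapped (log2 -0.51, 95% interval -1.32 to 0.31, adjusted p = 0.445), and Ifit3 and Isg15 overlapped as well. In Gbp2, Gbp5 and Ifit1 rmCIRP replicate 3 was highest and replicate 2 lowest of the 3 rmCIRP libraries. With the 12 WT libraries fitted alone 17 of the 26 were called lower, Ifit1 among them (adjusted p = 0.00567). When only the TLR4-/- library that stood apart was left out, 6 were.

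Of 16 effector enzymes tested 1 rose and 3 fell, a share close to the 20.5% of all genes called. Ptges, the inducible prostaglandin E synthase, had 23467, 21674 and 24163 against 14422, 13604 and 15059 (log2 -0.69 ± 0.19, adjusted p = 0.0176), whereas Ptgs2, the cyclooxygenase before it in the pathway, overlapped between groups (log2 0.10, 95% interval -0.16 to 0.36). Sod2 fell by 0.33 and Lcn2 by 0.62, and Arg1 rose by 0.62, but these calls depended on single libraries. Sod2 lost its call without rmCIRP replicate 3 or replicate 2 of rmCIRP+rmTGF-β1 (adjusted p = 0.11 and 0.118), Lcn2 without rmCIRP replicate 1 or 3 or replicate 1 or 2 of rmCIRP+rmTGF-β1 (0.108 to 0.202) and Arg1 without any 1 of the 6 (0.124 to 0.28). Nos2 (log2 -0.14, interval -0.35 to 0.06) and Acod1 (log2 -0.09, interval -0.26 to 0.07) did not pass.

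Of 25 cell cycle genes, 1 was higher and 1 lower. The riser was Mcm6, a subunit of the replicative helicase, with 2129, 2124 and 2133 against 3426, 3611 and 3429 (log2 0.71 ± 0.067, adjusted p = 1.6e-07), and Ccnd2 fell by 0.26 ± 0.039. These cell cycle counts depended on the fit, with 3 higher and 2 lower for the 12 WT libraries alone. For the 6 libraries alone they were 8 and 2. Of 19 macrophage markers 1 rose and 1 fell, with a median of 0.02. Csf1r rose by 0.26 ± 0.068, Marco fell by 0.33 ± 0.098 (adjusted p = 0.134 without replicate 2 of rmCIRP+rmTGF-β1), and Lyz2 had 63050, 60431 and 63905 against 63128, 58929 and 66222 (log2 0.0032, interval -0.14 to 0.15). None of 9 endothelial or 6 mesothelial markers passed. Of 12 epithelial markers 5 were abundant enough to test, of which 1 was called lower, beside 10.5% of all genes, and 0 higher. That call was lost when any 1 of the 6 libraries was left out. The defining Epcam, Sftpc, Sftpb, Sftpa1, Scgb1a1 and Nkx2-1 had at most 4 raw counts in any of the 6 libraries. Of 11 lymphoid and neutrophil markers 3 could be tested, of which Mpo was called at low counts (means of 5.82 and 12.8, log2 1.11 ± 0.35, adjusted p = 0.043). It was not called with DESeq2, with the 6 libraries fitted alone, with no filter on low counts or one at a mean count of 10, or without rmCIRP replicate 2 or replicate 1 or 2 of rmCIRP+rmTGF-β1.

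To examine whether rmTGF-β1 acted alike without rmCIRP, rmTGF-β1 was compared with PBS in the other 6 WT libraries, which share none with the comparison above. There 2019 genes (12.4%) passed, 938 higher (5.77%) and 1081 lower (6.65%). The count fell to 1253 without PBS replicate 3 and to 1029 without rmTGF-β1 replicate 2. A total of 1439 genes passed in both settings, 43.23% of those called with rmCIRP and 71.27% of those called without it, and 1434 of them had the same direction. Genes called without rmCIRP had a median effect of 0.26 there and 0.25 with rmCIRP, in the direction found without it. In reverse, genes called with rmCIRP had a median effect of 0.27 there and 0.16 without rmCIRP, in the direction found with it. In each pair the first setting also chose the genes. Across all 16258 genes, which are not independent replicates, the effects had a Pearson correlation of 0.494, and the sign was the same in 71.36%. St8sia2 rose by 1.79 ± 0.18 without rmCIRP and by 3.13 ± 0.20 with it, Eln by 1.87 ± 0.24 and 2.44 ± 0.28, and Lox by 0.62 ± 0.072 and 0.63 ± 0.072. Sorbs2 had -1.17 and -1.49, Adm -1.37 and -1.75, and Tslp -1.09 and -1.57. In none of these genes did the difference pass its test.

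**Figure D4:**
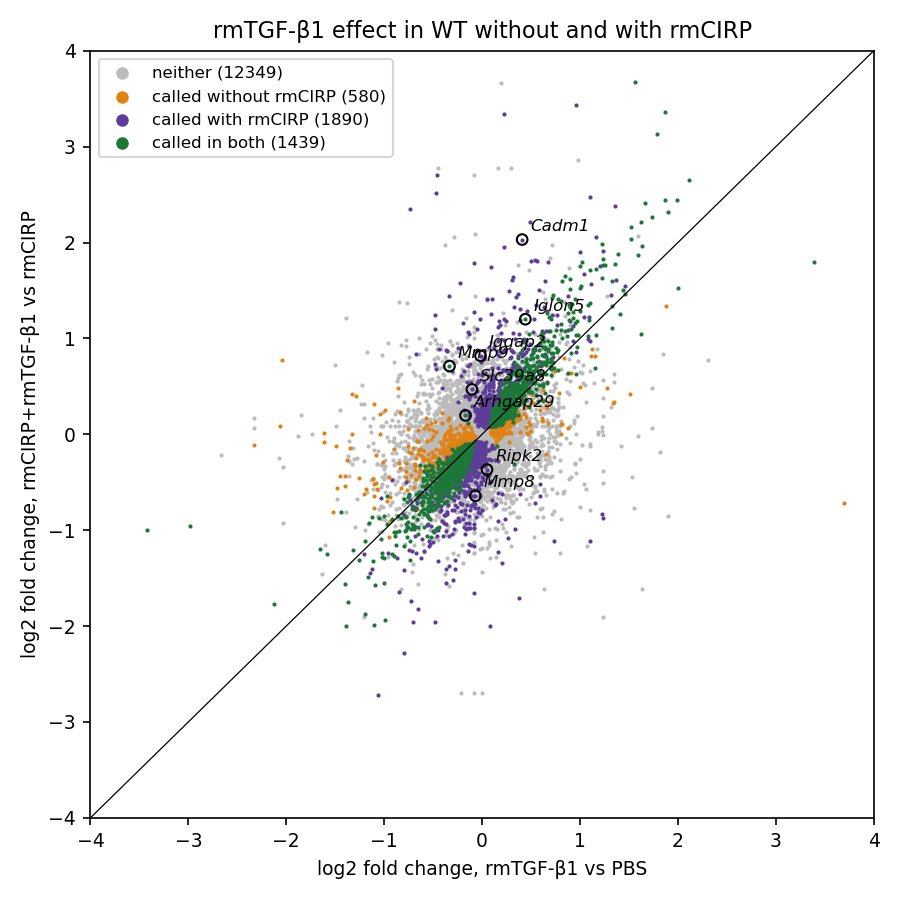
Log2 fold change of rmTGF-β1 against PBS (horizontal axis) and of rmCIRP+rmTGF-β1 against rmCIRP (vertical axis) in WT fibroblasts, 1 point per gene tested, with the line of equal effects and 5 genes outside the axes. Of the 1439 genes called in both settings, 1434 changed in the same direction. The 8 circled genes are those whose difference passed the test.

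The difference between both effects was tested for each gene, and 8 genes (0.0492%) passed, the effect being higher with rmCIRP in 6 (0.0369%) and lower in 2 (0.0123%). At an unadjusted p under 0.05 there were 917. With the 12 WT libraries fitted alone 125 genes passed, with DESeq2 39, and without 1 of the 12 libraries between 2 (without rmCIRP replicate 3) and 7 (without rmCIRP replicate 1). Mmp9 had 1295, 1692 and 1537 with PBS and 1355, 986 and 1259 with rmTGF-β1, groups that overlapped. It was called lower with rmTGF-β1 in the absence of rmCIRP (log2 -0.33, adjusted p = 0.0416) and higher in its presence. The difference was 1.04 ± 0.14 (adjusted p = 0.0023). Iqgap2, a scaffold protein, had 299, 362 and 362 with PBS, 381, 299 and 335 with rmTGF-β1 and 361, 327 and 370.4 with rmCIRP, 3 groups that overlapped, but 609.7, 591 and 672 with both (difference 0.83 ± 0.13, adjusted p = 0.0141). Mmp9 and Iqgap2 kept their calls without any 1 of the 12 WT libraries.

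Cadm1 had 62.6, 44.9 and 53.1 with PBS and 63.5, 76.0 and 74.4 with rmTGF-β1 (difference 1.62 ± 0.26, adjusted p = 0.0141), and lost the call without PBS replicate 1 or rmCIRP replicate 3 (adjusted p = 0.105 and 0.108). Slc39a8, a zinc transporter, overlapped between PBS (286, 229 and 279), rmTGF-β1 (264, 258 and 221) and rmCIRP (235, 262 and 263), and had 365, 334 and 355 with both. Mmp8 had 2883, 3733 and 3392 with PBS and 3518, 3097 and 2961 with rmTGF-β1, which overlapped, and fell only from its higher level with rmCIRP (difference -0.57 ± 0.1, adjusted p = 0.0384). Its call was lost without PBS replicate 3, rmCIRP replicate 3, rmTGF-β1 replicate 1 or replicates 1 or 2 of rmCIRP+rmTGF-β1 (adjusted p 0.101 to 0.125). Slc39a8 (difference 0.57), Iglon5 (0.76), Arhgap29 (0.37) and Ripk2 (-0.42) were least stable. Slc39a8 kept its call only without PBS replicate 2, Iglon5 only without rmCIRP replicate 1, Arhgap29 only without rmCIRP replicate 1 or rmTGF-β1 replicate 1, and Ripk2 in no fit that left out 1 of the 12 libraries (adjusted p at most 0.353, 0.29, 0.192 and 0.29).

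**Figure D5:**
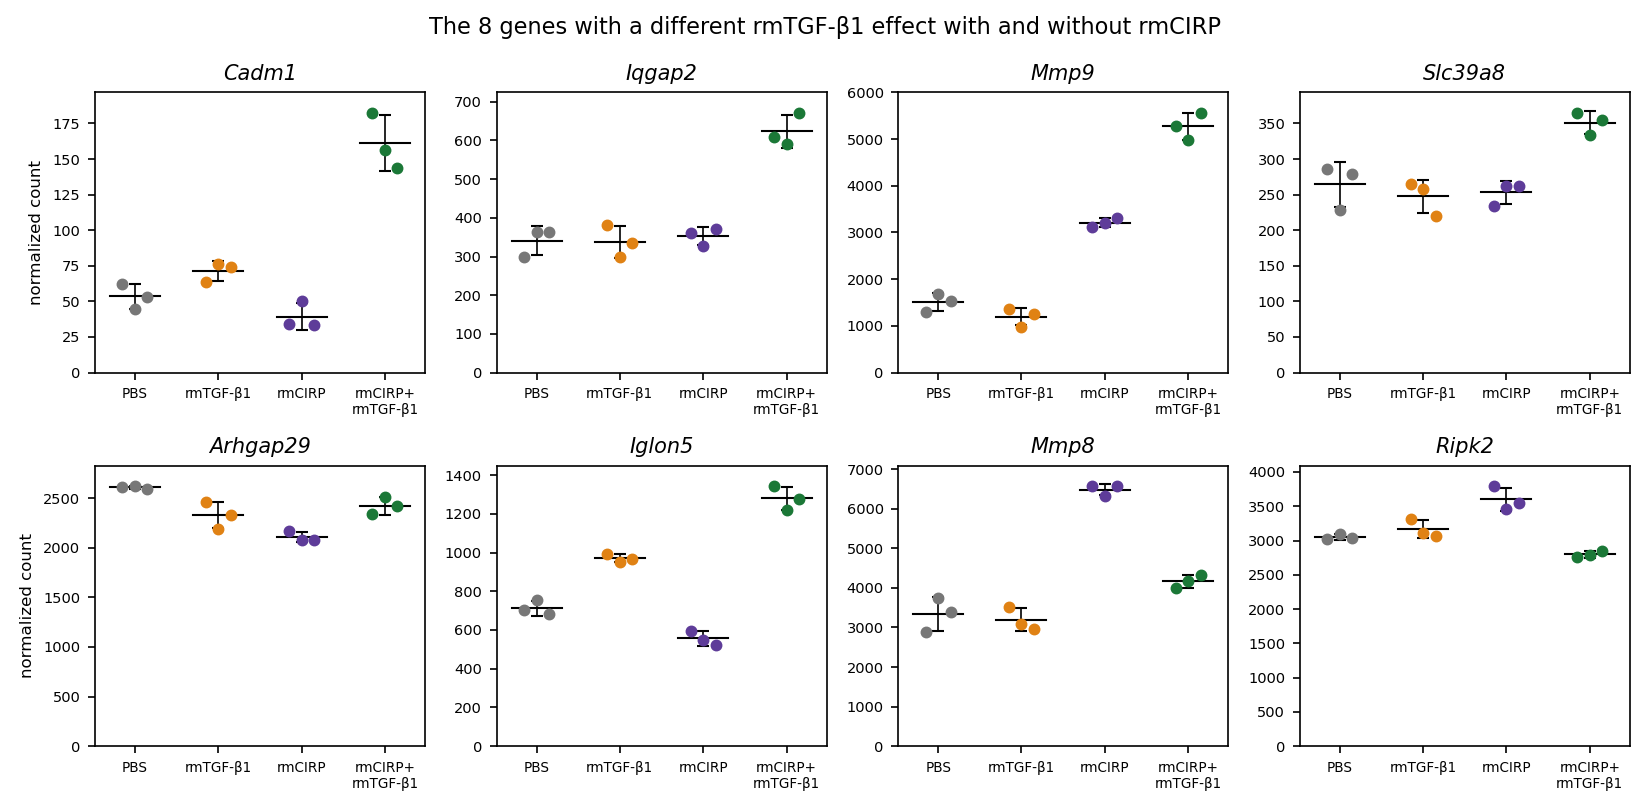
Normalized counts (vertical axes, from 0) of the 8 genes whose rmTGF-β1 effect differed with and without rmCIRP, in the 12 WT libraries, with 1 point per library, a line at the mean and bars of ± 1 SD (n = 3). For Cadm1, Iqgap2, Mmp9, Slc39a8 and Iglon5 the rmCIRP+rmTGF-β1 points are the highest of the 4 treatments, and for Ripk2 the lowest.

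The same addition of rmTGF-β1 to rmCIRP in libraries labelled TLR4-/- changed 5329 genes (32.8%), 2791 higher (17.2%) and 2538 lower (15.6%). The effect differed from that in WT for 843 genes (5.19%), with the log2 fold change under the TLR4-/- label above that in WT for 537 (3.30%) and below it for 306 (1.88%). Without the library that stood apart this count was 342, and over all fits without 1 of these 12 libraries it ranged from 257 (without WT rmCIRP replicate 3) to 2633 (without replicate 1 of TLR4-/- with both proteins). The macrophage marker sum given above differed between the labels too, and its part in these differences was not tested. St8sia2 rose in both, by 3.13 in WT and by 1.56 under the TLR4-/- label (31.5, 32.5 and 34.4 with rmCIRP and 113, 97.9 and 80.3 with both). Eln had 503, 551 and 429.6 with rmCIRP and 1134, 846 and 353 with both under that label (log2 0.65 ± 0.27 against 2.44 ± 0.28 in WT), and replicate 3 was its lowest library with both. Adamts5, a protease of proteoglycans, had 367, 348 and 348 against 301, 304 and 348 in WT, which overlapped, and 1026, 1176 and 1104 against 475, 398 and 249 under the label (log2 -1.56 ± 0.16). Jag1 (log2 1.73), Cdh6 (1.81), Ptx3 (-1.80) and Adm (-1.55) changed under the TLR4-/- label in the direction they took in WT. Tslp, which fell by 1.57 in WT, had 121, 121 and 108 with rmCIRP and 76.9, 53.4 and 184 with both there (log2 -0.19, adjusted p = 0.718). With both, the library that stood apart was above all 3 rmCIRP libraries, and the other 2 were below them.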

How the data were processed

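Pulmonary fibroblasts were profiled by bulk RNA sequencing in 24 libraries, 3 for each of 8 conditions (WT or TLR4-/- with PBS, rmCIRP, rmTGF-β1 or both). Reads were aligned by the authors (STAR2, mouse GENCODE reference), who deposited HTSeq's raw counts per gene symbol, 1 file per library. The release, versions and strand setting are not given in the sources used here, and the submitters' processing notes name NCBIM37, HTSeq and FastQC. Without a known strand setting, overlapping and antisense genes cannot be told apart. Each file held 55291 gene names, 34285 of them with a count in any library, and 5 tally lines without a gene (14.53 to 16.13% of all counts), which were left out of library sizes and tests.

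Counts were analysed with edgeR 4.0.16 in R 4.3.3. Genes were filtered with filterByExpr (16258 tested), scaled by TMM and fitted in 1 quasi-likelihood model of all 24 libraries with 8 condition means, so that all libraries shared the estimate of the spread. P-values were adjusted by Benjamini-Hochberg and genes under 0.1, the cut-off of the study's methods, were called. A standard error (SE) is the size of the log2 fold change over √F, F being the test statistic, and 95% intervals follow from it. Normalized counts are deposited counts divided by DESeq2 1.42.0 size factors and serve for levels only. Where every rmCIRP library had 1 to 3 counts, the ratio of summed counts was given with an exact 95% counting interval. Total counts make counting error small for all but rare genes, and it is the only error that depth covers.

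Named were the 15 largest rises and 15 largest falls (mean of 50 normalized counts or more, no overlap of libraries), all genes whose effect differed with and without rmCIRP, the 5 largest differences between genotypes in each direction, and members of 26 gene lists. The comparison, its lists and its tests were chosen with earlier results of these data known. Promoter windows came from RefSeq (GRCm38.p6) and were matched by symbol. The alternatives were DESeq2, RLE scaling, no filter or a mean count of 10, fits on fewer libraries, a replicate block, a threshold of 0.05 and leaving out each library. A fit without replicate 3 of TLR4-/- rmCIRP+rmTGF-β1 was added after seeing the data. Of the steps above, only the edgeR fit and its test of rmTGF-β1 added to rmCIRP in WT were tried on simulated counts.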

Additional observations from a re-analysis of the deposited data

Results flagged for a closer look

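The effects of rmTGF-β1 with and without rmCIRP in WT fibroblasts were compared by a test of the difference itself (edgeR, adjusted p under 0.1). It was passed by 125 genes with the 12 WT libraries fitted alone, and by 8 genes in the fit of all 24 libraries. On the log2 scale the effect with rmCIRP was higher by 1.6218 for Cadm1 (SE 0.26, adjusted p = 0.0141), by 1.0449 for Mmp9 (SE 0.14, adjusted p = 0.0023), by 0.8346 for Iqgap2 (SE 0.13, adjusted p = 0.0141), by 0.7585 for Iglon5 (SE 0.14, adjusted p = 0.068), by 0.5724 for Slc39a8 (SE 0.11, adjusted p = 0.0937) and by 0.3661 for Arhgap29 (SE 0.067, adjusted p = 0.0566). The difference was -0.5729 for Mmp8 (SE 0.10, adjusted p = 0.0384) and -0.4183 for Ripk2 (SE 0.083, adjusted p = 0.0937). All 3 libraries with both proteins lay above all 3 with rmCIRP alone for the first 6 genes and below them for Mmp8 and Ripk2.

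Genotype labels differed in the effect of rmTGF-β1 added to rmCIRP for 843 genes. The largest positive differences (TLR4-/- label minus WT, log2) were 3.5091 for Csf2, which encodes the growth factor GM-CSF, 2.8541 for Col13a1, 2.6927 for the EGF receptor ligand Areg, 2.5946 for Syt7 and 2.5063 for the opioid precursor Penk. Csf2 was at 0 to 3 counts in the TLR4-/- libraries with rmCIRP, so that its difference depends on the fit. Part of these values rested on replicate 3 of TLR4-/- rmCIRP+rmTGF-β1, which had 140.1 normalized counts of Col13a1 against 13.8 and 19.6 in the other replicates, 374 of Syt7 against 45.4 and 72.1, and 1559.6 of Penk against 199 and 316. Without that library the differences were 1.13 for Col13a1 (adjusted p = 0.459), 1.16 for Syt7 (adjusted p = 0.242), 1.12 for Penk (adjusted p = 0.101) and 1.91 for Areg (adjusted p = 0.0263). Other libraries mattered too. Of the 12 fits that left out 1 library, Col13a1 lost its call in 8, Syt7 in 6 and Penk in 3, while Csf2 and Areg kept theirs throughout.

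The largest negative differences were -1.7892 for Eln, -1.6818 for Cadm1, -1.5710 for St8sia2, -1.5047 for Clec2e and -1.3983 for the aggrecanase Adamts5. Eln, Cadm1, St8sia2 and Clec2e rose in WT, whereas Adamts5 overlapped in WT and fell under the TLR4-/- label. Eln without the same library had -1.45 (adjusted p = 0.0133).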

How the results depend on the processing

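The count of 3329 genes for rmTGF-β1 added to rmCIRP in WT stayed within 1.5 times of itself in all settings tried (2355 to 4591). The 8 genes whose effect differed with and without rmCIRP became 198 without the filter on low counts, 125 with only the 12 WT libraries (which are also the libraries compared), 39 with DESeq2, 4 at a threshold of 0.05 and 2 to 23 when 1 library was left out (2 without WT rmCIRP replicate 3, 23 without replicate 3 of TLR4-/- with both proteins). rmTGF-β1 against PBS gave 2019 genes, 3357 with only the 12 WT libraries and 1029 to 2855 without 1 library (1029 without rmTGF-β1 replicate 2). The TLR4-/- contrast gave 5329, 2710 with only the libraries compared and 3802 to 5985 without 1 library. The genotype difference gave 843, 1811 without the filter, 186 with only the libraries compared, 342 at 0.05 and 257 to 2633 without 1 library. The causes were not tested. No result changed sign past a threshold. Replicate numbers did not pair the libraries: the correlations of same-numbered deviations between rmCIRP and rmCIRP+rmTGF-β1 were -0.0273, 0.0419 and 0.0538. With the replicate block the counts were 3401, 8, 2103, 5315 and 1229, in the order above. Depth limits only rare genes, such as Cilp and Csf2.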
